A study of Homo sapiens with 16 samples.

Results

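IL32, IL4I1, UBD, FDCSP and IL3RA are 5 of the 36601 genes measured in single cells of human kidney organoids. They were selected on their RNA levels in bulk libraries, far higher after TNFα than after vehicle, and because the paper on these data does not discuss them. No numeric threshold set the choice. UBD is not among the genes of the 3 bulk tables used here, so these did not choose it. Its values come from single cells and are no check independent of the choice. FDCSP is not in the table of set 1. The other members are 4 of the 21093 genes of the TNFα bulk table, whose TNFα values chose them and are therefore given as a description without a test.

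RNA was measured in kidney organoids, small kidney-like tissues with glomerular, tubular and stromal cells, grown from the established human embryonic stem cell line UM77-2. The untreated bulk libraries are set 1, with 1 library each on days 21, 25 and 29, and set 2, with 2 libraries on each of these days. Day 25 organoids gave 4 bulk libraries, 1 each of vehicle control (VC) and TNFα at 5 ng/ml after 24 h and 48 h. Whole cultures on day 24 gave 2 single-cell libraries, 1 control and 1 with TNFα for 24 h. A further single-cell control of day 25 was not analysed here. All groups share 1 stem cell line, and nothing in the labels says that the pairs of set 2 came from separate cultures, so their p-values may measure technical spread.

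TNFα is an inflammatory cytokine that binds receptors on kidney cells and activates the transcription factor NF-κB, which then turns on chemokines, adhesion molecules and its own inhibitors. IL32 encodes a secreted inflammatory cytokine found in humans but not in mice. IL4I1 encodes a secreted enzyme that oxidises aromatic amino acids and yields ligands of the aryl hydrocarbon receptor. UBD, also called FAT10, is a ubiquitin-like protein that marks proteins for the proteasome. FDCSP is a small secreted protein first described in follicular dendritic cells. IL3RA is the ligand-binding chain of the interleukin-3 receptor and signals together with the shared chain CSF2RB.

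Bulk libraries held 19073609 to 59246286 reads, and bulk levels are given as log2(CPM + 1), where CPM is a gene's share of all reads, scaled to 1e6. The single-cell libraries held 11906 control cells with a median of 6358.5 UMIs (counted molecules) and 23160 TNFα cells with a median of 2599. The lowest TNFα cell had 1514 UMIs and the lowest control cell 613, and 82 cell barcodes occurred in both libraries. Cells fell into 8 named classes, each called from at least 3 markers, with 2737 control and 2239 TNFα cells left unnamed. Class levels are UMIs of a gene per 1e6 UMIs of the class (also written CPM) with exact 95% Poisson intervals, which describe counting error alone. Since each condition is a single library, no single-cell difference between conditions has a replicate check or a test.

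The members lie on 5 chromosomes. In GENCODE 44 (GRCh38), IL32 (ENSG00000008517) occupies chr16:3065297-3082192 on the plus strand. IL4I1 (ENSG00000104951) occupies chr19:49889654-49929539 on the minus strand, and 13.5% of its exon bases also belong to NUP62 on the same strand. UBD (ENSG00000213886) occupies chr6:29555515-29559732 on the minus strand. Of its exon bases, 80.8% lie in exons of GABBR1 on the same strand and 93.5% in exons of OR2I1P on the opposite strand, so how reads are shared out there depends on the counting. FDCSP (ENSG00000181617) occupies chr4:70226124-70235252 and IL3RA (ENSG00000185291) chrX:1336616-1382689, both on the plus strand.

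The sequences just upstream of UBD and of the first IL32 start site are shown. Both hold a match to the κB consensus, the motif that NF-κB binds. RefSeq start sites can differ from the GENCODE bounds given above. The windows of IL32, IL4I1 and IL3RA overlap those bounds, and the IL32 match and the TATAAA of IL3RA lie within them. The windows are the 250 bases before the start site in RefSeq GRCh38.p14, 5′ to 3′, at chr6:29559733-29559982 on the minus strand for UBD and chr16:3065153-3065402 on the plus strand for IL32, with the match in capitals.
UBD: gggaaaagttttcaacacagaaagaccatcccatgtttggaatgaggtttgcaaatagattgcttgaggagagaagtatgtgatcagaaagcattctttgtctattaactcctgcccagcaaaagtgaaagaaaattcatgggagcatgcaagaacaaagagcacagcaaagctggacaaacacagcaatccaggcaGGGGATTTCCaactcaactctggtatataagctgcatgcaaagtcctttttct
IL32: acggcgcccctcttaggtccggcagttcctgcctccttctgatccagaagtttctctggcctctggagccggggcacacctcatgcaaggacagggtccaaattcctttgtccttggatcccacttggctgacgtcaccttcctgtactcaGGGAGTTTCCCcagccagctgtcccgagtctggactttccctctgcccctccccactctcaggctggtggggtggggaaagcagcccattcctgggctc
The UBD match ended 44 bases before the start site. The capitals of IL32 hold overlapping matches on both strands and ended 89 bases before the start site. Of 34961 RefSeq windows of this length, 9.97% hold a κB match on either strand. None was found in the windows of IL4I1, IL3RA and the second IL32 start site. The IL3RA window holds TATAAA from base -29 to base -24, a motif that 10.7% of windows hold, and TTCNNNGAA, the form recognised by STAT factors, which 6.57% hold. TGANTCA, the form recognised by AP-1, was found in none of these windows. Such a match is a string of letters and was not tested as a binding site, and FDCSP was not searched.

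In bulk organoids, the secreted products IL32 and IL4I1 were the members with the highest levels after TNFα. IL32 stood at 3.07 with VC and 7.50 with TNFα at 24 h, and at 3.25 and 7.29 at 48 h, all as log2(CPM + 1). These values rest on 400, 9474, 424 and 9220 reads. Both TNFα libraries lay far above both VC libraries, with a difference on this scale of 4.44 at 24 h and 4.04 at 48 h, or 24.5-fold and 18.3-fold in CPM. IL4I1 stood at 1.70 and 5.95 at 24 h and at 1.89 and 6.30 at 48 h, from 121, 3204, 134 and 4593 reads. Its difference was 4.26 at 24 h and 4.41 at 48 h, 27.4-fold and 28.9-fold in CPM, so it alone of the 4 members had a larger difference at the later time.

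FDCSP and IL3RA started lower. FDCSP stood at 0.21 with VC and 4.48 with TNFα at 24 h, and at 0.35 and 3.50 at 48 h, from 8, 1117, 13 and 609 reads. The TNFα libraries were again both above the VC libraries, and the TNFα value at 48 h was lower than at 24 h. In CPM the ratio of TNFα to VC was 144 at 24 h and 39.5 at 48 h, on VC counts so small that the ratios are imprecise. IL3RA, the receptor chain, stood at 0.38 and 3.94 at 24 h and at 0.63 and 3.84 at 48 h, from 16, 754, 27 and 789 reads. Its differences were 3.56 and 3.21, or 48.7-fold and 24.6-fold in CPM, again on small VC counts. A smaller number of cells of a type and less RNA per cell cannot be told apart in these bulk values.

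**Figure D1:**
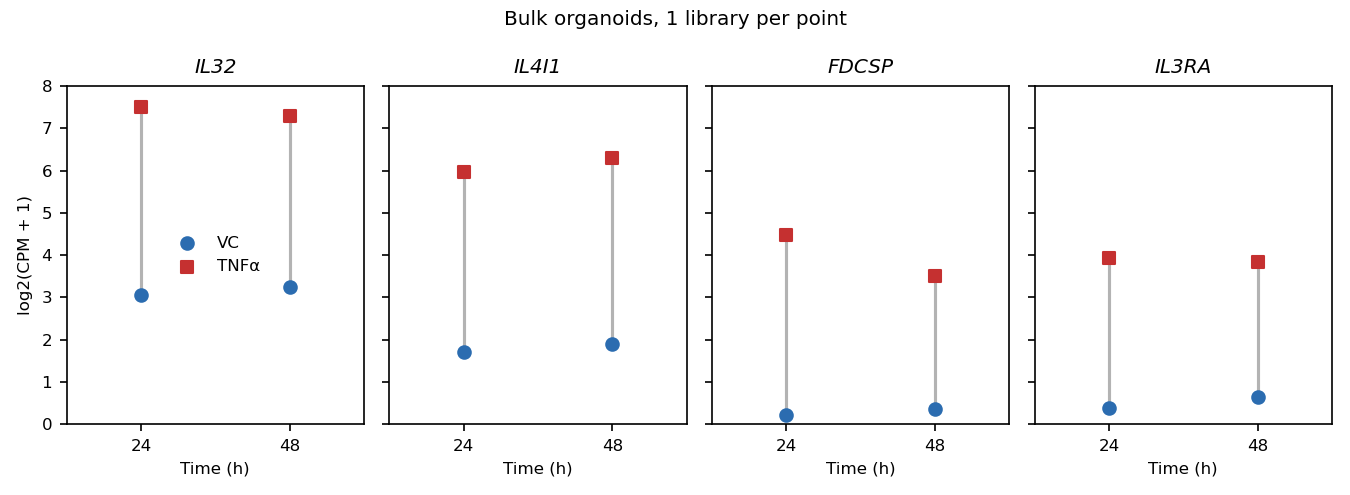
Level of the 4 members analysed in bulk as log2(CPM + 1) on the vertical axis, against hours of treatment on the horizontal axis, 1 point per library, VC and TNFα, with a grey line joining the libraries of a time. Each TNFα point lies above both VC points of its gene, and FDCSP falls from 4.48 to 3.50 between the TNFα libraries of 24 h and 48 h.

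Per kilobase of exon, the order after 24 h of TNFα was IL32 at 56.2 CPM per kb, FDCSP at 41.4, IL4I1 at 24.4 and IL3RA at 8.39. At 48 h IL32 was at 48.5 CPM per kb, IL4I1 at 31.1, FDCSP at 20 and IL3RA at 7.79. FDCSP and IL4I1 thus changed places between the times, each with 1 library and no replicate check. By the mean of both differences, IL4I1, IL32, FDCSP and IL3RA ranked 2, 4, 9 and 11 of 21093 genes. A difference of at least 1 at both times was found for 184 genes (0.872%) and of at least 3 for 15 genes (0.0711%), among them these 4, which is what the choice of members used. By distance between the pairs of differences at 24 h and 48 h, over 16905 genes with a mean of at least 1, the genes nearest to IL32 were CCL2 and CXCL1, and the nearest to IL4I1 after IL32 was MMP9. TNFRSF4 and BIRC3 were nearest to FDCSP, and LTBP2 and IL34 to IL3RA.

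Cell-type markers moved in the same 4 libraries. The median level of 8 podocyte markers (podocytes are the filtering cells of the glomerulus) was 9.20 and 9.17 with VC against 8.60 and 8.38 with TNFα, as log2(CPM + 1). The median of the proximal tubule markers was 7.07 in both VC libraries and 5.35 and 5.65 with TNFα, while the stromal markers stayed between 7.73 and 7.95. The part of these shifts in the members' values was not tested. RNA of immune cells was scarce: the 4 leukocyte markers listed, of 16, summed to 1.64 and 1.73 CPM with VC and to 2.51 and 3.71 CPM with TNFα. PTPRC, which marks all leukocytes, is not among the genes listed in bulk. It had 1 UMI in the control and 4 UMIs in the TNFα single-cell library, and MS4A1 and CD2 had none in either. All 16 markers together had 541 UMIs (5.38 CPM) in the control and 633 UMIs (6.94 CPM) with TNFα. Among them CD68 went from 342 to 219 UMIs and IL7R from 48 to 200.

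The partners of each member were followed in lists, with the members left out, by limma's test across the 21093 genes, which called 1776 genes higher (8.42%) and 2285 lower (10.8%) with TNFα at an adjusted p under 0.05, the times standing in for replicates. For UBD, 5 of the 9 genes tested of FAT10 conjugation and the immunoproteasome rose and 1 fell, with a median change of 0.32 against -0.03 over all genes. PSMB8, a catalytic immunoproteasome subunit, rose by 1.38 (SE 0.09, limma adjusted p = 5.85e-09), and PSME2, part of the proteasome activator, rose by 0.61. HDAC6, which carries FAT10 conjugates to the aggresome, fell by 0.21. Of 14 genes of ubiquitin and other ubiquitin-like modifiers, RPS27A, a ubiquitin precursor, rose by 0.28 and no other passed the test. ISG15, the modifier made under interferon, changed by 0.09 (limma adjusted p = 0.663).

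For IL4I1, 2 of 10 genes of the kynurenine pathway and the aryl hydrocarbon receptor rose and 3 fell, with a median of -0.05. TDO2, which opens the tryptophan ring, rose by 1.20, and CYP1B1, listed with the receptor, rose by 0.996. KMO and HAAO, later enzymes of the pathway, fell by 0.91 and 0.58, and TIPARP, likewise listed with the receptor, fell by 0.30. CYP1A1 and AHRR, also listed with the receptor, were not analysed in bulk. They had 8 and 27 UMIs in the control and 4 and 23 UMIs in the TNFα single-cell library. Activity of the receptor was not tested. For IL3RA, 3 of 7 genes of the shared receptor axis rose and none fell. CSF2RB, the partner chain, stood at 1.97 and 1.95 with VC and at 3.68 and 3.20 with TNFα, a rise of 1.48 (SE 0.13, limma adjusted p = 1.57e-07). STAT5A, a factor downstream of the receptor, rose by 0.76. The ligand genes IL3 and CSF2 had no UMI in either single-cell library, which for 3 counts over all cells allows up to 0.0298 CPM in control and 0.0329 CPM with TNFα.

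Around FDCSP on chromosome 4, 4 of 16 neighbouring secretory genes were tested. ODAM, a secreted protein of enamel epithelium, rose by 0.51, and the other 3 did not pass the test. Genes linked to IL32 by binding or induction were few, and 2 of 3 rose: TNF itself by 2.26 and CXCL2 by 1.26. For scale, all 17 NF-κB response genes tested rose, with a median of 2.55, and the largest were ICAM1 at 4.25, VCAM1 at 4.14, CCL2 at 4.07 and CXCL1 at 3.95. Of the follicular and plasmacytoid dendritic markers, 1 of 3 tested rose, IRF8, by 1.82. Of the 4 leukocyte markers IL7R rose by 0.88, and of the 10 endothelial markers 5 fell, led by CLDN5 at -0.67 and CDH5 at -0.66. In single cells CLDN5 was also among the genes leading a podocyte-like cluster, so it does not mark endothelial cells alone here.

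Organoid age, which the choice of members did not use, gave a rise of IL32 without TNFα. In set 1, IL32 stood at 2.51, 3.36 and 3.77 on days 21, 25 and 29, IL4I1 at 1.495, 1.58 and 1.87, and IL3RA at 0.82, 0.85 and 0.85, as log2(CPM + 1). With 1 library a day these have no test. In set 2, the IL32 libraries stood at 2.26 and 2.24 on day 21, at 3.52 and 3.48 on day 25, and at 3.75 and 4.09 on day 29. Each later day lay above the earlier ones with no overlap. Of 27650 genes, 24.4% had both day 25 libraries above both of day 21, and 27.1% had both of day 29 above day 21. For day 29 above day 25 the share was 22.1%.

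IL32 was the member that passed limma's test. It rose by 1.67 from day 21 to day 29 (SE 0.15, limma adjusted p = 0.000307), where 18.4% of 27650 genes were called and 10.0% were called higher. From day 21 to day 25 it rose by 1.25 (SE 0.15, limma adjusted p = 0.00411), against 5.37% of genes called and 3.39% called higher. That call ended without the second day 21 library (adjusted p = 0.0517 by limma) and without the second day 25 library (0.0505). From day 25 to day 29 the difference of 0.42 did not pass (limma adjusted p = 0.194), and none of the 4 members was called there, against 2.08% of genes. IL32 and FDCSP had an unadjusted p under 0.05 there. edgeR called none of the 4, and DESeq2 called neither of the 2, IL32 and IL4I1, for which it gave an adjusted p.

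IL4I1 stood at 1.45 and 1.64 on day 21, at 1.93 and 1.67 on day 25, and at 2.03 and 2.08 on day 29. Day 29 lay above day 21 by 0.51 (SE 0.17) without passing the test (limma adjusted p = 0.0719), and edgeR's quasi-likelihood test on the recovered reads called it (adjusted p = 0.037), whereas DESeq2 did not (adjusted p = 0.136). IL3RA stood at 0.57 and 0.47, at 0.90 and 0.72, and at 0.69 and 0.86 on the same days, on 10 to 22 reads a library, and no difference between its days passed.

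FDCSP had no read in either day 21 library. It had 8 reads and 1 read in the day 25 libraries and 12 and 56 in the day 29 libraries. Over both libraries, day 29 was at least 19.3-fold higher than day 21, from the floor of 3 reads over the group. The limma difference of 1.02 (SE 0.31) did not pass (adjusted p = 0.0593), whereas edgeR (adjusted p = 0.0079) and DESeq2 (adjusted p = 0.0101) called it. The second day 29 library carried most of these reads. Without it the bound fell to 6.51-fold and the limma difference was 0.47 (adjusted p = 0.132), and without the first day 29 library the limma adjusted p was 0.000713. On both later days, each library of the 4 members lay above both libraries of day 21. Of all genes, 24.4% did so on day 25 and 27.1% on day 29. FDCSP, with no read on day 21, owes its place in a filtered table to the later libraries, so the count of 4 is no support. For the same reason the p-values and fold bounds of FDCSP against day 21 are a description and no support.

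**Figure D2:**
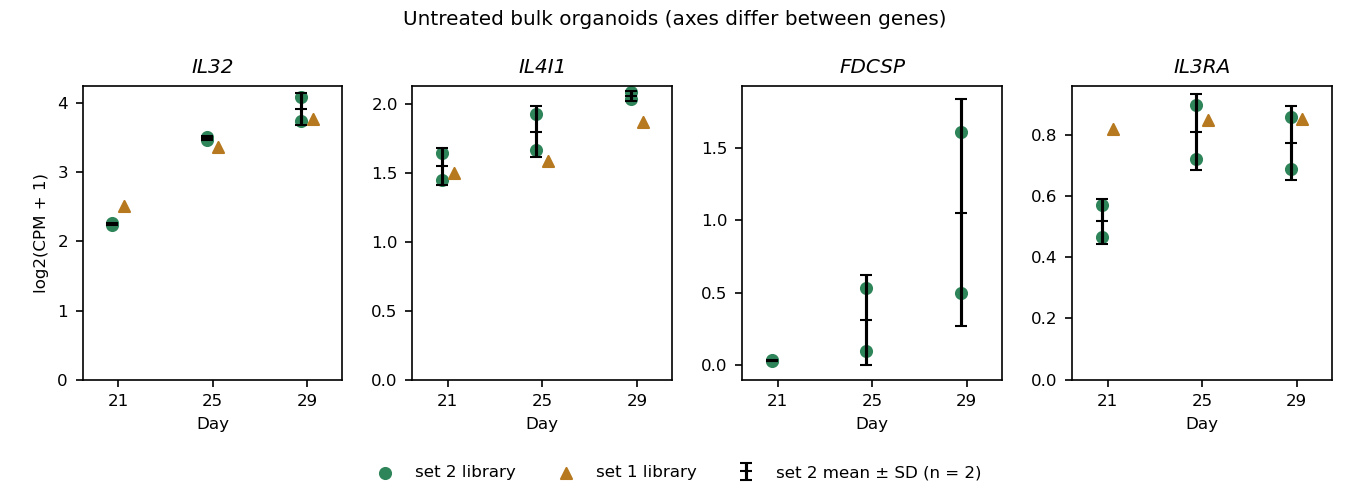
Level of the 4 members as log2(CPM + 1) in untreated organoids (vertical axis) against day (horizontal axis), 1 point per library, set 1 and set 2 marked apart, with bars for the set 2 mean ± SD (n = 2). The sets were normalized separately and the axes differ between genes. IL32 goes up from about 2.26 on day 21 to 4.09 on day 29 in set 2, and FDCSP has no set 1 point.

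Cell-type markers moved over these days too, and in bulk a change in cell number is not told apart from a change in RNA per cell. The median of the stromal markers in set 2 was 6.96 and 6.49 on day 21, 8.20 and 8.16 on day 25, and 8.63 and 8.84 on day 29, as log2(CPM + 1). The podocyte markers went from 9.94 and 10.1 on day 21 to 9.23 and 8.25 on day 29, and the proximal tubule markers from 6.94 and 6.48 to 5.19 and 5.13. The largest shift was in the mural markers (of smooth muscle and pericytes), at 4.37 and 3.64 on day 21 and 6.93 and 7.18 on day 29. The neuronal markers went from 3.91 and 3.89 to 4.92 and 5.69, and the endothelial markers from 3.90 and 3.52 to 4.36 and 4.25. The part of these shifts in the rise of IL32 was not tested. The 7 leukocyte markers listed summed to 1.96 to 2.69 CPM in every set 2 library. Of the 18 NF-κB response genes tested between day 21 and day 29, 9 rose and none fell, led by CCL2 at 1.64 and ICAM1 at 1.56. Of the 10 FAT10 and immunoproteasome genes 2 rose and 1 fell, of 13 kynurenine and aryl hydrocarbon receptor genes 3 rose and 3 fell, and of 7 genes of the interleukin-3 axis 1 rose. None of the 7 leukocyte markers passed, and of the 10 endothelial markers 5 rose and 3 fell. Of the 5 follicular and plasmacytoid dendritic markers tested, 1 rose, IRF8, by 1.87 (limma adjusted p = 0.000849). PSMB8 and TDO2, of the lists kept for UBD and IL4I1, rose by 1.45 and 1.85, whereas CSF2RB did not pass the test, with a change of -0.34 (limma adjusted p = 0.354).

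In single cells, UMIs of every member were far more frequent in the TNFα library. IL32 went from 25.8 CPM in the control to 566 CPM, a ratio of 22.0 (21.1 to 22.9). IL4I1 went from 1.43 to 28.8 CPM, a ratio of 20.1 (17.0 to 24.0), and IL3RA from 0.586 to 19.3 CPM, a ratio of 32.9 (25.4 to 43.4). UBD had 62 UMIs in all control cells and 6132 with TNFα, a ratio of 109 (85.0 to 143) in CPM. FDCSP had 49 UMIs in the control and 21674 with TNFα, a ratio of 488 (369 to 660). Across 5 members and 8 classes, 39 of 40 pairs were higher with TNFα with an interval, or the bound from 3 counts, above 1. IL3RA in endothelial-like cells was the exception. By the same rule 17.5% of 144332 pairs of a gene and a class were higher with TNFα. The members were chosen for a rise with TNFα, so the count of 39 is a description and no support. The 40 pairs include FDCSP in 7 classes and IL3RA in 3 whose levels with TNFα, relative to stromal-like cells, did not exceed those of stromal marker genes.

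The share of cells with a UMI moved likewise at equal depth. With each cell thinned to 1500 UMIs, which left out 953 control cells and no TNFα cell, IL32 was found in 2.25% of control and 49.0% of TNFα cells. The unthinned shares were 6.86% and 66.2%. At equal depth FDCSP went from 0.0714% to 20.7%, UBD from 0.0736% to 9.28%, IL4I1 from 0.167% to 3.57% and IL3RA from 0.0656% to 2.74%. Free RNA also gives UMIs to cells that do not express a gene. In the TNFα library the lowest class share was still 13.1% for FDCSP and 1.24% for IL4I1, both in neural progenitor or glial-like cells.

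Beside the members, marker genes were therefore followed in the wrong classes. The podocyte genes NPHS1, PODXL and PTPRO together had 1.52% of their podocyte-like level in stromal-like cells of the control and 8.67% in those of the TNFα library. The stromal genes COL1A1, COL3A1, DCN and PDGFRA had 14.0% of their stromal-like level in podocyte-like control cells and 34.6% in podocyte-like TNFα cells. RNA out of place was thus more frequent in the TNFα library. Whether it came as free RNA or in doublets was not tested. A member's share at or below that of these genes in the same class is not told apart from such RNA. For a member that is high in several classes the genes of 1 class understate it. A wider measure, added after the data were seen, sums the member's share in podocyte-like, stromal-like and proximal tubule-like cells, each times the share of that class's genes in the class compared. It may count the same RNA more than once. Of the 35 pairs of a member and a class other than its highest, 10 were at or below the first measure and 24 at or below the sum.

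IL32 in the control was highest in endothelial-like cells at 204 CPM (174 to 237) and muscle-like cells at 188 CPM (172 to 206), whose intervals overlap. The endothelial-like level rests on few cells, with UMIs in 31 of 551 cells and 124 of the 168 UMIs in 10 of them, whereas 128 of 260 muscle-like cells had a UMI. Proximal tubule-like cells followed at 58.3 CPM, stromal-like at 20.9, podocyte-like at 16.3 and proliferating-like at 5.97, neuronal-like cells stood at 3.58 CPM, and the neural progenitor or glial-like class stood at 3.20 CPM. With TNFα the order changed. Podocyte-like cells led at 994.5 CPM (981 to 1009), then stromal-like at 666, endothelial-like at 573, muscle-like at 500.3, proliferating-like at 442.5, proximal tubule-like at 395, and neuronal-like at 341. The neural progenitor or glial-like class was lowest at 176 CPM, and no neighbours overlapped.

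The ratio of TNFα to control for IL32 therefore differed widely between classes. It was 61.2 (53.8 to 69.9) in podocyte-like cells, 31.9 (28.4 to 35.9) in stromal-like cells and 6.79 (6.36 to 7.24) in proximal tubule-like cells. In muscle-like cells, of which 49.2% had an IL32 UMI in the control, it was 2.66. In endothelial-like cells it was 2.81, against a control level that 10 cells carried for the most part. The podocyte-like ratio joins 2 unlike clusters. IL32 went from 8.24 CPM in the control to 1063 CPM with TNFα in one, and from 26.4 to 885 CPM in the other. In stromal-like cells of the TNFα library IL32 had 67.0% of its podocyte-like level, against 8.67% for the podocyte genes, and 10.9% for the sum over 3 classes, so its level there was above both. Proximal tubule-like (39.7% against 26.4%) and muscle-like cells (50.3% against 48.3%) were above the sum as well. The other 4 classes were above the podocyte genes but below the sum, for example neuronal-like cells at 34.3% against 16.5% and 41.6%, so their IL32 is not told apart from RNA of other classes. Of 1096 IL32 UMIs in control proximal tubule-like cells, 389 came from 10 cells.

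IL4I1 was highest in the epithelial classes of the nephron. With TNFα it stood at 63.6 CPM (60.1 to 67.2) in podocyte-like and at 41.8 CPM (38.6 to 45.1) in proximal tubule-like cells. The other 6 classes stood at 6.26 to 16.6 CPM, and there endothelial-like, muscle-like, neuronal-like, stromal-like and proliferating-like cells overlapped their neighbours in the order. In proximal tubule-like cells IL4I1 had 65.7% of its podocyte-like level against a sum of 16.4%, and in stromal-like cells 19.6% against 12.3%. The other 5 classes were above the podocyte genes but below the sum, with the neural progenitor or glial-like class at 9.84% against 8.36% and 17.2%. The control order began with proximal tubule-like cells at 3.56 CPM and podocyte-like cells at 2.16 CPM, from 67 and 31 UMIs, and the neighbouring intervals overlapped throughout. TNFα to control ratios were 29.4 (20.6 to 43.5) in podocyte-like and 11.7 (9.11 to 15.3) in proximal tubule-like cells. In the 2 clusters of the podocyte-like class IL4I1 went from 0.999 to 58.8 CPM and from 3.64 to 71.2 CPM, on 8 and 23 control UMIs.

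UBD, the ubiquitin-like modifier, was spread more evenly. With TNFα, podocyte-like cells stood at 119 CPM (114 to 124), stromal-like at 81.3 (77.0 to 85.8) and endothelial-like at 71.7 (61.4 to 83.3). The other 5 classes lay between 42.0 and 51.9 CPM and overlapped each neighbour in the order. In stromal-like cells the share was 68.3%, against 8.67% for the podocyte genes and 10.7% for the sum over 3 classes. Proximal tubule-like (37.4% against 26.7%) and neural progenitor or glial-like cells (39.9% against 25.7%) were above the sum too. The other 4 classes were above the podocyte genes alone, with neuronal-like cells at 35.3% against 16.5% and a sum of 41.8%. In the control, 27 of the 62 UBD UMIs lay in neural progenitor or glial-like cells, 2.98 CPM (1.96 to 4.34), in 2.11% of those cells. The ratio of TNFα to control in that class was 15.9 (10.7 to 24.7). Exons of GABBR1 on the same strand hold 80.8% of the UBD exon bases. The part of GABBR1 RNA in the UBD UMIs of this class was not tested. In podocyte-like cells the ratio was 244 (118 to 607) on 7 control UMIs. Muscle-like and endothelial-like control cells had no UBD UMI, so UBD was at least 40.3-fold and 19.7-fold higher there with TNFα.

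FDCSP peaked in stromal-like cells. With TNFα it stood at 604 CPM (592 to 616) in stromal-like cells, at 319 in proliferating-like, 291 in endothelial-like and 219 in muscle-like cells. Neuronal-like cells stood at 174, podocyte-like at 124 and proximal tubule-like at 107. The lowest level, 71.4 CPM, was that of the neural progenitor or glial-like class. In each of the 7 classes other than stromal-like its share was at or below that of the stromal genes there, for example 20.6% against 34.6% in podocyte-like and 17.7% against 21.2% in proximal tubule-like cells. The stromal genes had 39.6% of their stromal-like level in proliferating-like control cells already, 18.2% in endothelial-like and 14.0% in podocyte-like control cells. In each of the 7 classes, FDCSP of the class itself and RNA from stromal-like cells cannot be told apart by this comparison. In cells with over 4000 UMIs, a limit set after the data were seen, FDCSP was above the stromal genes in muscle-like (28.7% against 20.8%) and neuronal-like cells (22.9% against 21.0%).

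Within stromal-like cells FDCSP was also concentrated in some cells. It was found in 33.5% of those TNFα cells, with up to 280 UMIs in 1 cell, whereas IL32 was found in 71.1% of them with at most 43. The 10 highest of these cells held 1636 of 9823 FDCSP UMIs, against 334 of 10843 for IL32. The share of 33.5% does not set stromal-like cells apart. It was 34.6% in proliferating-like, 33.3% in muscle-like and 19.6% in neural progenitor or glial-like cells, and 29.7% over all TNFα cells. In stromal-like control cells FDCSP had 30 of its 49 control UMIs, or 2.12 CPM (1.43 to 3.03), and the ratio of TNFα to control there was 284 (199 to 421). The ratio was larger in neuronal-like (2240, from 401), proximal tubule-like (2008, from 360) and podocyte-like cells (1781, from 319). Each of these rests on 1 control UMI and is very imprecise. In proliferating-like cells it was 204 (114 to 410).

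IL3RA, the receptor chain, was highest in stromal-like cells with TNFα, at 35.6 CPM (32.8 to 38.7), then in podocyte-like cells at 21.9 (19.9 to 24.1). The other 6 classes stood at 11.7 to 19.9 CPM and each overlapped its neighbour. In endothelial-like and muscle-like cells the share was at or below that of the stromal genes and is not told apart from RNA of stromal-like cells. It was below it in proliferating-like cells too (55.8% against 62.0%), which themselves hold stromal RNA. Podocyte-like cells (61.5% against 34.6%) and proximal tubule-like cells (37.3% against 21.2%) were above it, and above the sum of 40.2% and 28.7%. Neural progenitor or glial-like cells were above both as well (33.9% against 21.6% and a sum of 29.4%). Neuronal-like cells (33.3% against 31.2%) were below their sum of 45.3%. The podocyte-like class joins 2 clusters, and IL3RA stood at 15.04 CPM (12.9 to 17.4) in one and 32.9 CPM (29.0 to 37.3) in the other, which also had the genes TESC and IL1R1 among those leading it. In the control, endothelial-like cells stood at 12.1 CPM (5.81 to 22.3), from 10 UMIs with up to 5 in 1 cell, and their ratio of TNFα to control was 1.37 (0.672 to 3.07).

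**Figure D3:**
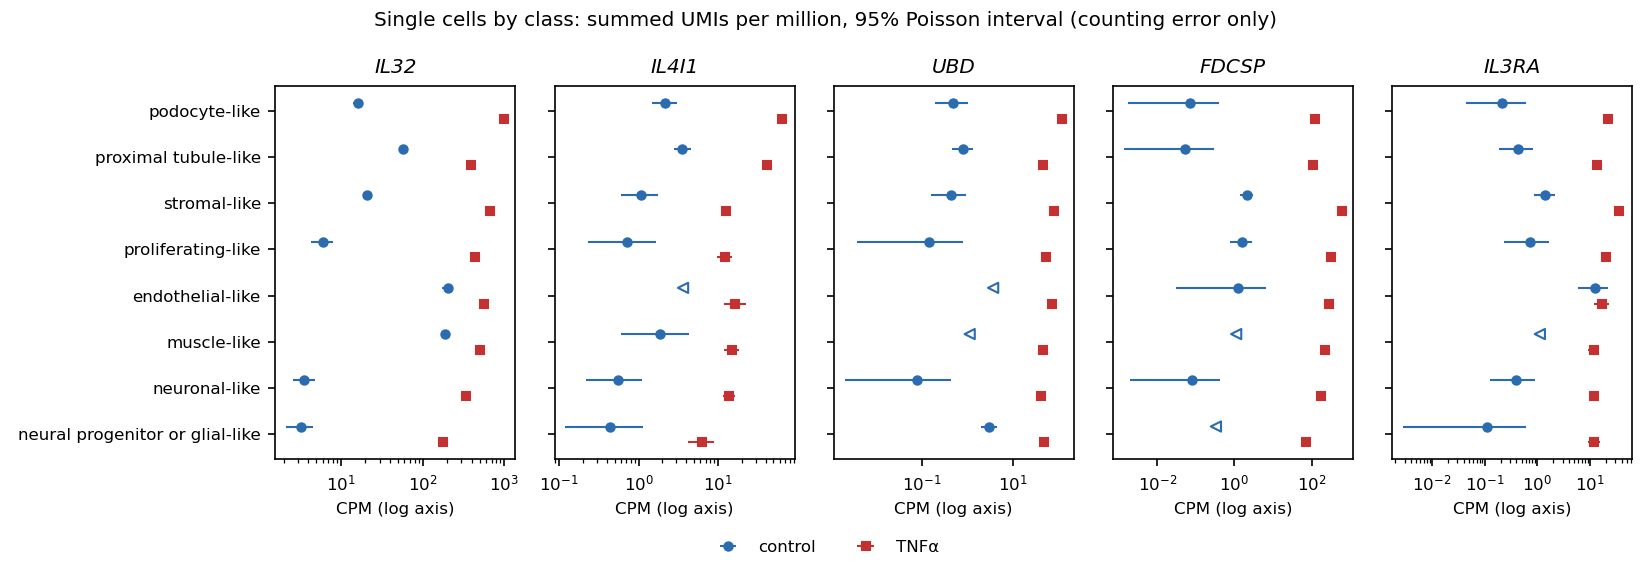
Summed UMIs of each member per 1e6 UMIs of the class (horizontal log axis) in 8 cell classes (vertical axis), control and TNFα, with 95% Poisson intervals for counting error. Open triangles mark classes with no UMI and are drawn at the level of 3 counts. IL32 in endothelial-like and muscle-like cells starts at 204 and 188 CPM in the control, and FDCSP with TNFα peaks at 604 CPM in stromal-like cells.

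The endothelial-like class has limits. Its control cells had a median of 989 UMIs, its 4 markers stood at 102% of their own level in proximal tubule-like cells of the TNFα library, and ACTG2 and ANKRD1 were among its leading genes. The muscle-like class joins 3 clusters. They held 109, 120 and 31 of its 260 control cells, and 1286, 469 and 0 of its 1755 TNFα cells. The first had 325 CPM of IL32 in the control and 553 with TNFα, and the second had 113 and 375.

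Ratios between members within a class describe how differently they were spread over the classes. FDCSP had 1.04 UMIs per UBD UMI (0.986 to 1.11) in podocyte-like cells, 2.40 (2.20 to 2.62) in proximal tubule-like and 7.43 (7.01 to 7.87) in stromal-like cells. IL3RA per IL4I1 UMI was 0.345 and 0.318 in podocyte-like and proximal tubule-like cells and 2.86 in stromal-like cells, with intervals of the stromal-like value (2.43 to 3.37) clear of both. IL32 per UBD was nearly constant, at 7.99 to 8.88 in 6 classes, with 11.2 in muscle-like and 3.71 in neural progenitor or glial-like cells. Among the 6, endothelial-like, proliferating-like and neuronal-like cells had both members below the background summed over several classes. The ratio there is not told apart from that of RNA of other classes.

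**Figure D4:**
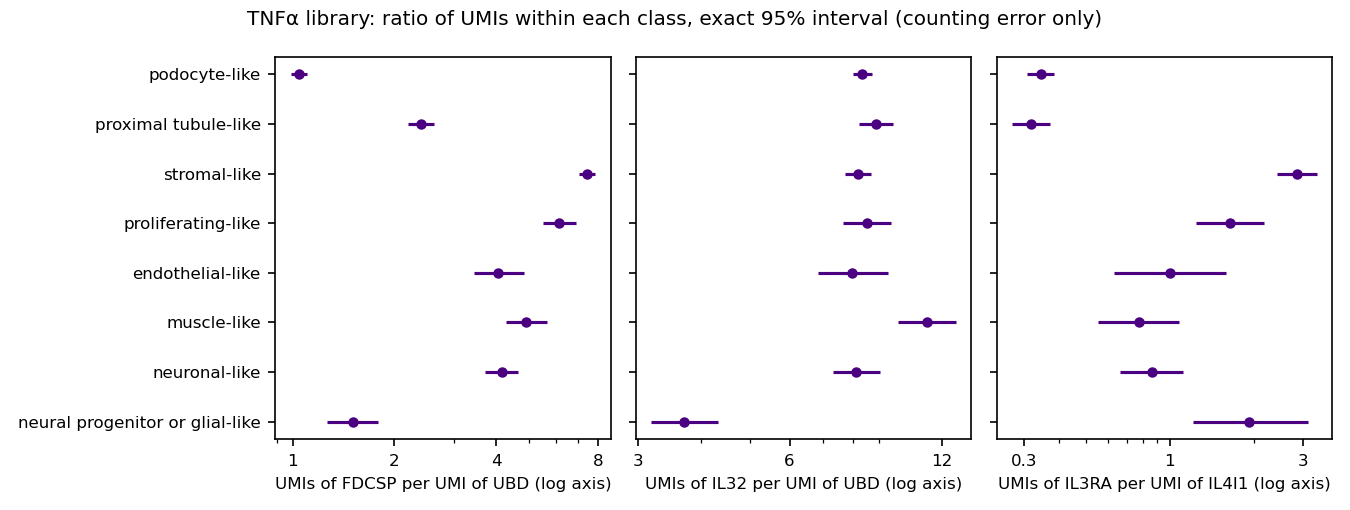
UMIs of one member per UMI of another in each class of the TNFα library (horizontal log axis) with 95% intervals for counting error. FDCSP per UBD spans 1.04 to 7.43 and IL3RA per IL4I1 0.318 to 2.86, while IL32 per UBD lies near 8 in 6 of 8 classes.

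The contrast of stromal-like with podocyte-like cells of the TNFα library kept its side for each member under 6 other ways of choosing or filtering the cells. The ratio of stromal-like to podocyte-like CPM was 4.86 (4.65 to 5.08) for FDCSP and 1.63 (1.43 to 1.85) for IL3RA, and 0.670, 0.683 and 0.196 for IL32, UBD and IL4I1. For FDCSP it ran from 3.48 when cells were assigned by a marker gate to 17.1 without alignment of the libraries, which left 72.0% of the TNFα cells unnamed. For IL4I1 it ran from 0.121 to 0.249. Each setting compares the podocyte-like class as a whole. In the podocyte-like cluster led by TESC, IL3RA with TNFα stood at 32.9 CPM (29.0 to 37.3). That overlaps stromal-like cells at 35.6 CPM (32.8 to 38.7), so the IL3RA contrast holds for the joined class and not for this cluster.

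**Figure D5:**
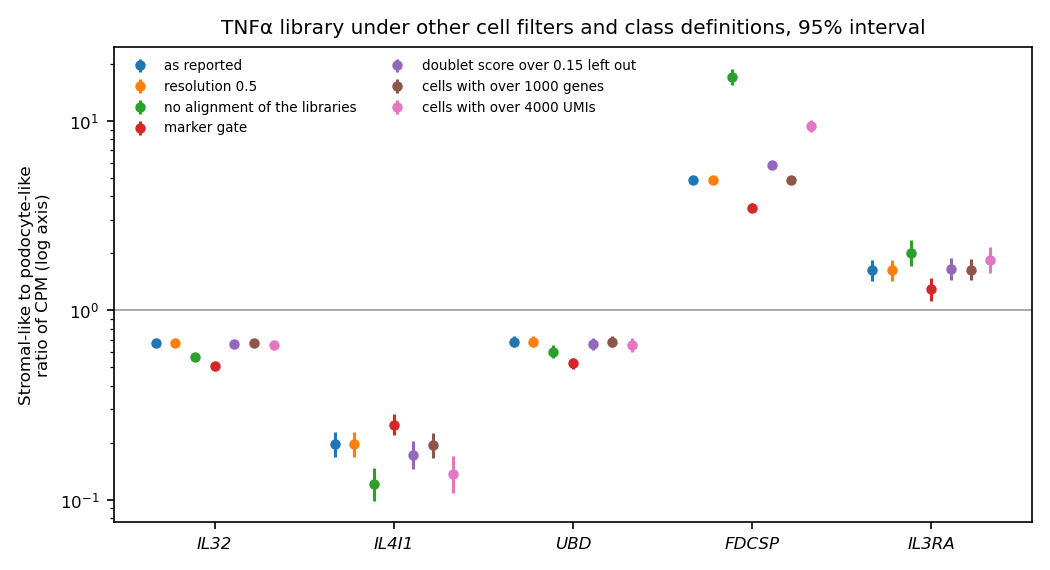
Ratio of stromal-like to podocyte-like CPM in the TNFα library (log axis) for the 5 members under the chosen clustering and 6 alternatives, with 95% intervals for counting error. FDCSP and IL3RA lie above 1 and IL32, UBD and IL4I1 below 1 under each.

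Genes of like pattern were sought over the 16 class levels of both libraries by Pearson's r of log2(CPM + 1). These levels share 2 libraries and their depths, so r is a description. The closest to IL32 were TNFRSF18 (r = 0.951), RELB (0.908) and TNFAIP2 (0.905). IL4I1 lay closest to ANO9 (0.982) and STAP2 (0.967), UBD to FDCSP (0.954) and CXCL6 (0.95), FDCSP to CXCL10 (0.982), ICAM1 and PSMB9 (both 0.973), and IL3RA to ICAM1 (0.961) and JUNB (0.953). Within the 8 TNFα levels, r between FDCSP and UBD was 0.255 and between FDCSP and IL4I1 -0.2. The likeness of these pairs over 16 levels (0.954 and 0.84) thus rests on the step between the libraries. This did not hold for every pair. Within the TNFα levels r was 0.781 between IL32 and UBD, against 0.764 over 16 levels, and 0.984 between IL4I1 and ANO9. PSMB9, the immunoproteasome subunit not analysed in bulk under TNFα, went from 0.338 to 9.07 CPM over all cells, and IDO1, the tryptophan enzyme best known for induction by cytokines, stood at 0.258 and 0.373 CPM.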

How the data were processed

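Reads behind the bulk log2 values were aligned by the authors with STAR 2.7.8a and counted per gene with HTSeq, then normalized. The filter behind the listed genes was not given in the sources used here. Deposited values equal log2(CPM + 1) with 0.5 reads added to each count, and whole reads came back for 100% of them (within 0.001 reads). For single cells, the deposited UMI counts are filtered Cell Ranger 6.0.1 matrices, per the file headers.

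The members and gene lists were chosen with earlier results of these data known. Set 2 was fitted with limma 3.58.1 (R 4.3.3, eBayes with trend, 1 mean per day), and the TNFα table with treatment and time. P-values are two-sided and Benjamini-Hochberg adjusted over all genes of a table, with calls under 0.05. edgeR 4.0.16 and DESeq2 1.42.0 used the recovered reads. Tables were normalized separately and not compared by level.

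Cells with over 500 genes were clustered without the members and list genes (2000 variable genes per library, 30 components, a Harmony alignment in numpy 2.4.6, leidenalg 0.10.2 at resolution 0.25). The podocyte markers exclude 1 gene that is not reported here. A cluster was named from 3 or more markers of at least 20 CPM and a log2 fold of at least 1. No doublets were removed. Scrublet called 1 cell per library at its own threshold, which does not show that doublets were absent. A score over 0.15, held by 632 control and 4317 TNFα cells, was used as an alternative. Named genes are mainly the members, up to 4 called genes per list, the defining markers and the 3 genes nearest to each member. The procedures were tested on simulated data. At the depths of 19073609 to 59246286 reads, bulk counts under about 10 reads are imprecise.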

Additional observations from a re-analysis of the deposited data

How the results depend on the processing

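Of the 4 members in set 2, 1 was called between days 21 and 29 by limma, 3 by edgeR, and 2 each by DESeq2, after median centring, with a mean of at least 1 (2 tested), on log2(CPM + 0.1) and without the trend. Leaving out 1 library gave 1 to 2. Between days 21 and 25 it was 1, and 0 to 1 with 1 library left out (the second of day 21 or of day 25 took it to 0). Between days 25 and 29 it was 0, and 0 to 1, with FDCSP called without the first day 29 library (limma adjusted p = 0.00613). The IL3RA difference between days 25 and 29, -0.04 with all libraries, ran from -0.126 to 0.0503 with 1 library left out, turning sign without the first day 25 library (0.0503) or the first day 29 library (0.0476). The cause of these changes was not tested. The share of all genes called was found for the main limma fit alone (18.4%, 5.37% and 2.08%). Counts of members under the other settings have no such share beside them and are no support for a rise with age. Several include FDCSP, which had no read on day 21.

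Libraries of set 2 share a number and nothing says that they share a culture. The deviations of same-numbered libraries correlated at 0.143, 0.0753 and 0.27 over genes. With the replicate number as a block the members called stayed at 1, 1 and 0, and the list genes called between days 21 and 29 went from 28 to 30 of 90. List genes called with TNFα were 42 of 81, and 28 with treatment alone and 32 by DESeq2.

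On log2(CPM + 0.1) the TNFα differences of FDCSP were 6.38 at 24 h and 4.81 at 48 h. Alternatives chosen after seeing the data were the limit of 4000 UMIs, the background summed over 3 classes, which took the pairs at or below background from 10 to 24 of 35, and the doublet score, which left out 632 control and 4317 TNFα cells. By the marker gate all 40 pairs of member and class were higher with TNFα, IL3RA in endothelial-like cells included. Few UMIs in the control limit its order of classes for UBD, FDCSP and IL3RA.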

Other observations

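Values in clusters that stayed unnamed belong to no comparison above. Cluster 13, led by C1orf56, PAQR7 and B4GALT1, with 238 control and 427 TNFα cells, had 10.1 CPM of IL32 in the control and 766 CPM with TNFα. Its IL4I1 level with TNFα was 30.4 CPM, and its FDCSP and UBD levels were 295 and 78.5 CPM. Cluster 11, led by SPRR2F, NPY and AMHR2, stood at 10.7 CPM of IL32 in the control and 303 CPM with TNFα. Cluster 9, led by SPOCK3 and MYF6, stood at 8.34 and 178 CPM of IL32. Each value has 1 library per condition and no replicate check.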
